A study of Mus musculus with 4 samples.

Results

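The genes described here are 40 genes of heart muscle, read in RNA sequencing of whole lungs of mouse embryos. They were chosen as a list of atrial, ventricular and shared cardiac muscle genes by symbol, and all 40 were found among the 52636 Ensembl genes of the deposited table. The lungs came from C57BL/6 embryos at embryonic day 14.5, with 2 libraries labelled Control (genotype wild type) and 2 labelled Yap CKO, a conditional knockout of Yap that the series title places in the epithelium. The labels name neither the Cre driver nor the floxed exons. They also do not say whether the 2 libraries of a group came from separate embryos, litters or pools. A p-value here thus reflects the spread between these 4 libraries only. The controls differed in the sex-linked genes given below, so they were not made from the same material. Between the Yap CKO libraries the spread may be technical. The strain and the age were the same in all 4 libraries.

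Heart muscle contracts through sarcomeres, in which myosin thick filaments slide along actin thin filaments between Z-discs, and calcium released from the sarcoplasmic reticulum switches the thin filament on through troponin. In the adult heart, atrial and ventricular muscle use different myosin light chains and differ in their natriuretic hormones. How far the proportions of these genes tell the chambers apart at embryonic day 14.5 was not tested. In mice, cardiac muscle of the atrial kind also sheathes the pulmonary veins, including their course inside the lung. YAP is a transcriptional co-activator that binds DNA through TEAD factors, and the knockout studied here was aimed at the lung epithelium, not at muscle.

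The libraries held between 17756301 and 21333878 reads. Each normalized count equals the reads divided by 1 factor per library, and 3 reads, the upper limit that a count of 0 allows, came to between 2.80 and 3.51 normalized counts. These limits, like all intervals below, cover counting error only. The 8 lung markers summed to between 21308 and 24049 normalized counts and included the lung transcription factor Nkx2-1 and the surfactant gene Sftpc, so the labelled tissue was present in every library. Control 1 stood apart in the sex-linked genes: Xist was at 42.6 normalized counts there against 42729 to 50045 in the other 3 libraries, and Ddx3y was at 1726 against 5.77 to 16.4. Control 1 was also the library with the lowest sum of heart muscle genes, and a link between these was not tested. Yap1 was at 5686 and 3467 normalized counts in the controls and at 3209 and 4483 in the Yap CKO libraries, which overlapped (log2 difference -0.23, adjusted p 0.683, limma), as far as whole lung can show a deletion in 1 tissue layer.

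The promoters of 4 of the genes are printed as examples from the pattern described below. Nppa and Mybpc3 had 1 and 2 reads in control 1 against 2269 and 1349 in control 2. Myl7 was the atrial light chain with the highest level per exon length. Corin differed least between the 2 libraries with the highest sums of the 40 genes. Each is the 250 bases before the RefSeq start in build GRCm38.p6, read 5′ to 3′ on the gene's strand, and holds no annotated exon. Capitals mark matches to the motifs searched. The promoter box TATAAA was searched on the gene strand only. The other motifs were searched on both strands with overlaps allowed, namely CATTCC for TEAD factors, AAGTG for the heart factor NKX2-5, the SRF CArG box, the MEF2 site and, for zinc finger factors such as Gata4, either AGATAA or the alternative form TGATAA.
Nppa: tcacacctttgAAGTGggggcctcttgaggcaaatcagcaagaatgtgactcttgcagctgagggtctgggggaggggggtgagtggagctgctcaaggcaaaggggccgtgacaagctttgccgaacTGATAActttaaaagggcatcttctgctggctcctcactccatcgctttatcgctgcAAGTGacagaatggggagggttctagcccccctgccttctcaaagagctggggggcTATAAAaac
Myl7: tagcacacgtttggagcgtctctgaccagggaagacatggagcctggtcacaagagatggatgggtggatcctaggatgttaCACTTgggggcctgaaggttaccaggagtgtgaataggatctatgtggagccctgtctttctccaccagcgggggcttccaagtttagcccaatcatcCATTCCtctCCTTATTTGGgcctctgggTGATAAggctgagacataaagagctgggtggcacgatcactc
Mybpc3: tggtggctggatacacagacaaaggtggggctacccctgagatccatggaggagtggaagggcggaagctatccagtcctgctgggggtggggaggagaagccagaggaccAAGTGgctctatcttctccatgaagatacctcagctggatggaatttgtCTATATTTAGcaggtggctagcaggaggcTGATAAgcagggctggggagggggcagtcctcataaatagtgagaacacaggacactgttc
Corin: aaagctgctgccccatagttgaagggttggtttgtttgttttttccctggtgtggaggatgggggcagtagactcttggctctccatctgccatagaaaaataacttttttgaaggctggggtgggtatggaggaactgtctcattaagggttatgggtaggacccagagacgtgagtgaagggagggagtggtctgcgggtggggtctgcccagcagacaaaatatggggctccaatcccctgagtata
The windows lie at chr4:148000472-148000721 on the plus strand (Nppa), chr11:5898783-5899032 on the minus strand (Myl7), chr2:91117894-91118143 on the plus strand (Mybpc3) and chr5:72504541-72504790 on the minus strand (Corin). Nppa held the TATA box, a GATA motif and 2 NKX2-5 motifs. Myl7 held a TEAD motif, a CArG box, a GATA motif and an NKX2-5 motif, and Mybpc3 a GATA motif, an NKX2-5 motif and a MEF2 site. Corin held none of these letters in this window. RefSeq gave 44 windows for 36 of the 40 genes. The CArG box was in 4 of these 44 (9.09%) against 1.47% of all 32851 windows, the MEF2 site in 4 (9.09%) against 2.92%, and the GATA motif in 12 (27.3%) against 16.6%. The NKX2-5 motif was in 24 (54.5%) against 40.7%, the TEAD motif in 9 (20.5%) against 12.6% and the TATA box in 3 (6.82%) against 7.59%. A match is a description of letters, not a binding site.

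The heart muscle genes differed strongly between libraries of the same genotype, and 1 library of each genotype was rich in them. Control 1 held 3767 of their normalized counts and control 2 held 74689, against 17793 for Yap CKO 1 and 4360 for Yap CKO 2. These sums are 0.0183%, 0.360%, 0.0900% and 0.0219% of each library's total, in the same order. Control 2 was 19.8-fold above control 1, and Yap CKO 1 was 4.08-fold above Yap CKO 2. The 2 libraries with low sums, 1 of each genotype, differed 1.2-fold. In whole lung, more cardiac muscle cells and more RNA per such cell cannot be told apart. Actc1, cardiac α-actin, made up much of the sum, but without it the sums kept the ratios 21.9 between the controls and 4.10 between the Yap CKO libraries.

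**Figure D1:**
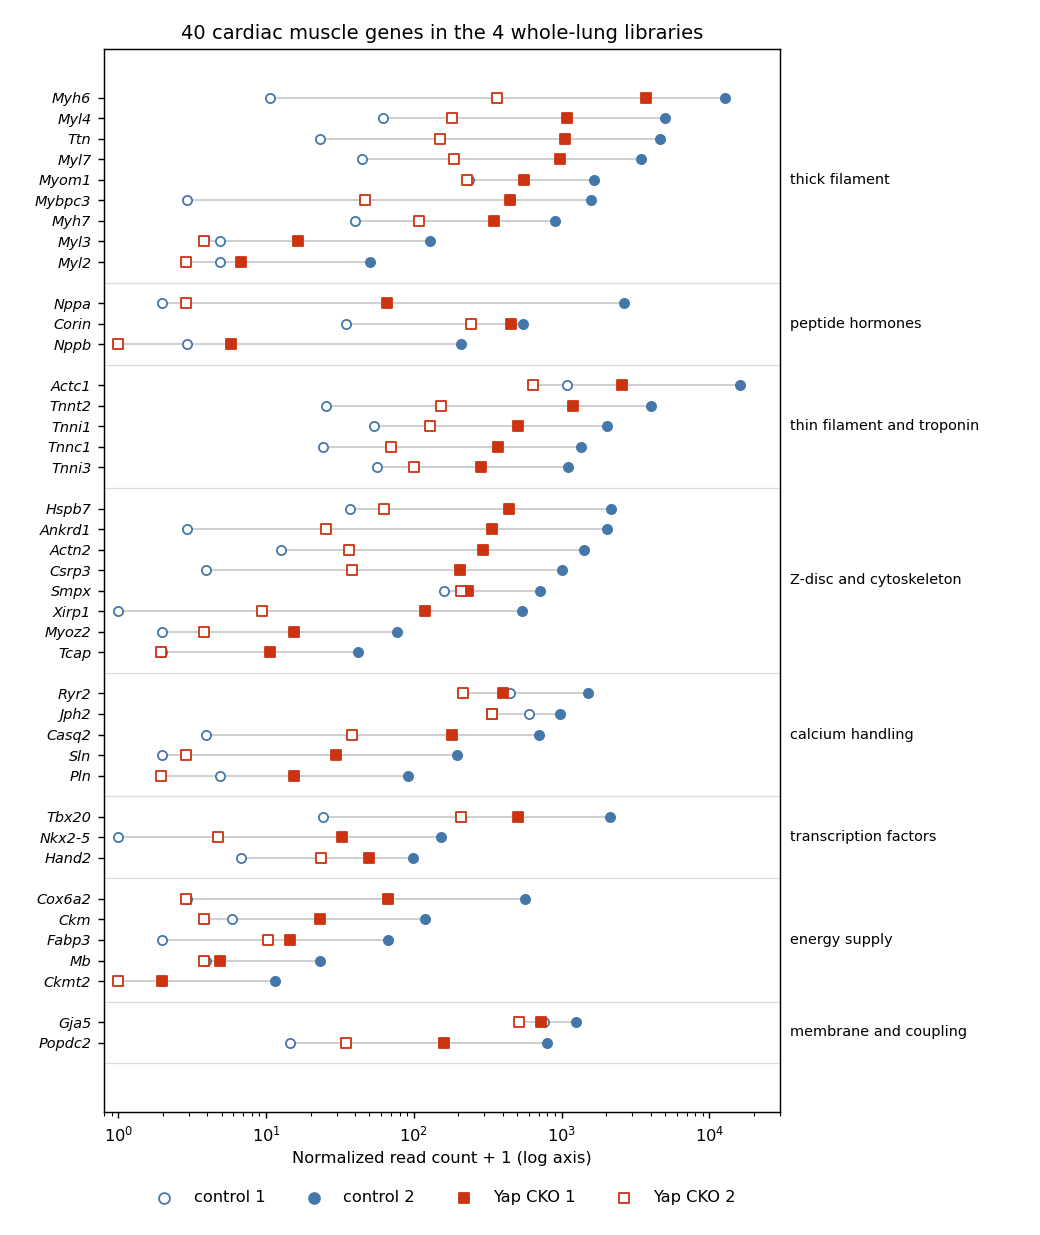
Normalized read count plus 1 (log axis) of each of the 40 genes in control 1 (open circles), control 2 (filled circles), Yap CKO 1 (filled squares) and Yap CKO 2 (open squares), grouped by role; grey lines span the 4 libraries. Control 2 is the rightmost point of every gene, and of the 38 tested genes only Jph2, Ryr2 and Gja5 keep the 2 genotypes apart.

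38 of the 40 had a mean of at least 10 normalized counts and entered the tests, and Ckmt2 and Mb did not. Control 2 was the highest library for all 38, a rank it held for 26.6% of all 19472 genes tested. It was at least 4-fold above control 1 (log2 values compared after adding 1 to each count) for 35 of the 38, against 1.41% of all genes. Yap CKO 1 was at least 4-fold above Yap CKO 2 for 24 of the 38, against 0.375%. Control 1 was the lowest library for 26 of the 38, against 23.5%, and the same 26 followed the full order of control 2, Yap CKO 1, Yap CKO 2 and control 1 from high to low, against 4.14%. Genes at 3 reads or fewer numbered 15 of the 40 for control 1, 12 for Yap CKO 2, 1 for Yap CKO 1 and 0 for control 2.

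Thick filament genes were low in control 1, and 6 of the 9 were above 1000 normalized counts in control 2. The 9 genes summed to 420, 30104, 8185 and 1264 normalized counts, with controls 1 and 2 before Yap CKO 1 and 2, the order used for all values that follow. Myl7 (chr11:5896637-5898782, minus strand), the atrial regulatory light chain whose promoter is printed above, was at 43.6, 3417, 966 and 186, so that both Yap CKO libraries lay between the controls. Myh6, the α-myosin heavy chain of atrial and adult heart, was at 9.69, 12782, 3717 and 363. Mybpc3, the cardiac myosin-binding protein C, was at 1.94, 1578, 444 and 45.7, with only 2 reads in control 1. Titin, the molecular spring encoded by Ttn, was at 22.3, 4617, 1051 and 149. The M-band protein gene Myom1 was the flattest of the 9, at 235, 1645, 552 and 228, and here control 1 and Yap CKO 2 were nearly level. The ventricular light chains Myl2 and Myl3 were low throughout, reaching 49.1 and 127 in control 2 and no more than 15.4 elsewhere.

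Thin filament genes followed the same libraries. Actc1 (chr2:114047282-114053548, minus strand) was at 1087, 16051, 2551 and 640 normalized counts and had the highest level per length of the 40 genes, a mean of 3141 normalized counts per kilobase of exon against 1955 for Myl7, 786 for Nppa and 627 for Myh6. Control 1 held more Actc1 than Yap CKO 2, unlike most of the genes. Smooth and skeletal muscle of embryos can also make cardiac α-actin, and the smooth muscle list (all 12 genes measured) summed to 47154 and 46849 in the controls and to 26753 and 33217 in the Yap CKO libraries; its part in Actc1 was not tested. Tnnt2, which anchors troponin to tropomyosin, was at 24.2, 4039, 1198 and 152, and Tnnc1, the calcium sensor, was at 23.3, 1359, 368 and 69.0. In both, the 2 genotypes overlapped fully. The inhibitory subunits were at 52.3, 2015, 503 and 128 for Tnni1, the fetal form, and at 55.2, 1099, 282 and 99.7 for Tnni3, the form of the mature heart.

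Among the 8 genes of the Z-disc and cytoskeleton, the steepest were nearly absent from control 1. Ankrd1, a stretch-responsive nuclear and sarcomeric protein, was at 1.94, 2015, 338 and 24.2 normalized counts. Xirp1, an actin-binding protein of the intercalated disc, had 0 reads in control 1 and stood at 536, 118 and 8.39 in the other libraries, so control 2 was at least 184-fold higher than control 1, computed against the limit of 3 reads. Hspb7 (chr4:141420779-141425311, plus strand), a small heat shock protein of muscle, had the highest level per length in the group and was at 35.9, 2142, 441 and 61.5. The other 5 genes were Actn2, Csrp3, Tcap, Myoz2 and Smpx. Smpx, on the X chromosome, was at 158, 712, 232 and 207 and varied least of them.

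Calcium handling genes split into a steep and a flat set. Casq2, the calcium store of the sarcoplasmic reticulum, was at 2.91, 705, 181 and 37.3 normalized counts. Sarcolipin (Sln), an inhibitor of the calcium pump found mainly in atria, was at 0.969, 195, 28.8 and 1.86, and phospholamban (Pln), the related inhibitor, was at 3.88, 90.0, 14.4 and 0.932. These 3 were lowest in control 1 and Yap CKO 2. The calcium release channel Ryr2 was at 443, 1503, 399 and 213 and the junctional protein Jph2 at 598, 975, 337 and 336, and only in these 2 of the 5 did the genotypes not overlap.

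Genes of energy supply had the lowest sums of the 8 roles in every library, at 11.6, 782, 106 and 16.8 normalized counts over 5 genes. Cox6a2 (chr7:128205435-128206387, minus strand), the heart and muscle form of a cytochrome oxidase subunit, made most of this in control 2 and Yap CKO 1, at 1.94, 566, 65.4 and 1.86. The muscle creatine kinase Ckm reached 118 in control 2, the fatty acid carrier Fabp3 reached 65.5, myoglobin (Mb) 22.2 and the mitochondrial creatine kinase Ckmt2 10.5. In control 1 and Yap CKO 2, 4 of the 5 were at 3 reads or fewer.

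The heart transcription factors ran with the sarcomere genes. Nkx2-5, the homeobox factor of early heart muscle, had 0 reads in control 1 and was at 151, 31.7 and 3.73 normalized counts in the other libraries. Tbx20 (chr9:24718138-24774303, minus strand), a T-box factor of myocardium and endocardium, was at 23.3, 2122, 506 and 208. Hand2 was at 5.81, 97.1, 49.0 and 22.4, a narrower range than that of the other 2. Control 2 was the highest and control 1 the lowest library for all 3.

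Among the hormone genes was the one with the widest range of the 40. Nppa (chr4:148000722-148002079, plus strand), which encodes atrial natriuretic peptide, was at 0.969, 2653, 64.4 and 1.86 normalized counts, with 1 read in control 1 and 2 in Yap CKO 2. Nppb, its neighbour on chromosome 4 that encodes the B-type peptide, was at 1.94, 206, 4.81 and 0. Both were above 100 normalized counts in control 2 alone. An antisense gene covers 61.5% of the exon length of Nppa, and as no source used here gives the strand setting of the counting, reads of the 2 cannot be told apart. Corin, the protease that activates the atrial peptide, was at 33.9, 545, 456 and 242, so that control 1 alone was low.

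Of the 2 membrane genes, Popdc2, a cAMP-binding protein of heart and muscle membranes, followed the sarcomere genes at 13.6, 794, 159 and 33.6 normalized counts. Gja5 (chr3:96904693-97077416, plus strand), the gap junction protein connexin 40 of atrial muscle and arterial endothelium, did not, at 753, 1255, 722 and 511. Its range over the 4 libraries was the narrowest of the 40, with Yap CKO 2 the lowest library.

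The atrial light chains outnumbered the ventricular forms in every library. Shares were computed from reads per exon length, with exact Clopper-Pearson 95% intervals. Myl7 made up 97.4% (93.1 to 99.3), 99.6% (99.4 to 99.7), 99.8% (99.6 to 99.9) and 99.7% (98.9 to 99.96) of Myl7 and Myl2, the ventricular regulatory light chain. Myl4, the atrial essential light chain, made up 87.4%, 94.5%, 96.9% and 96.6% of Myl4 and Myl3. The lowest of these 8 light chain shares, 87.4% in control 1, rests on 63 reads of Myl4 and 4 of Myl3. Myh6 made up 24.3% (12.5 to 39.45), 94.8% (94.4 to 95.2), 93.2% (92.5 to 93.9) and 81.25% (77.8 to 84.3) of Myh6 and Myh7, the slow β-myosin heavy chain. The low share in control 1 rests on 10 reads of Myh6 and 40 of Myh7. These 2 genes are near-identical neighbours on chromosome 14, so their split is uncertain where a counting program cannot place a read. Tnni3 made up 64.8%, 48.8%, 49.4% and 57.7% of Tnni3 and Tnni1, highest in the 2 libraries with the lowest sums of the 40 genes. This share depended on the transcript length used.

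**Figure D2:**
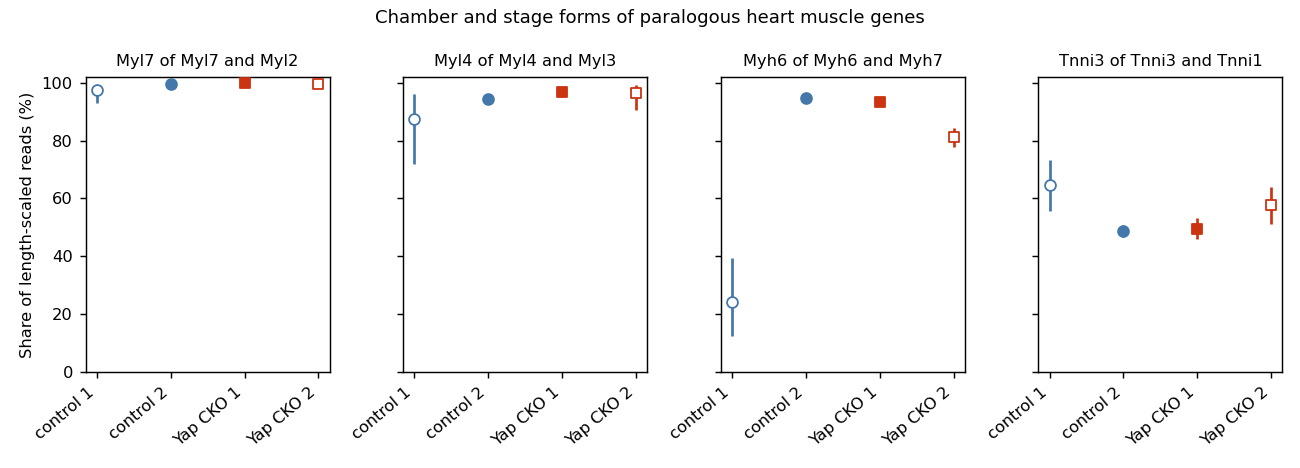
Share (%) of length-scaled reads taken by the first gene of each of 4 paralog pairs in the 4 libraries, with exact 95% counting intervals as vertical lines. The Myl7 and Myl4 shares are 87.4% or more in every library, and the Myh6 share is 24.3% in control 1 and 81.25% or more in the others.

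Markers of chambers outside the 40 genes were read from separate lists. Of 11 ventricular genes 8 were measured, and 2 of them, Irx1 and Irx5, which lung also expresses, fell in Yap CKO (limma). The ventricular factors Irx4 (0, 3.51, 0.961 and 0 normalized counts) and Hand1 (0, 0, 0.961 and 0.932) were at 3 reads or fewer in every library. 1 of the 8 measured genes, Cited1 (33.9, 179, 83.6 and 39.1), was at least 4-fold higher in control 2 than in control 1. Myh7b (15.5, 58.5, 43.3 and 25.2) had the same library order, and the list's median ratio of control 2 to control 1 was 0.915. Of the atrial and pulmonary vein list 12 of 13 genes were measured and none was called. 4 of the 12 were at least 4-fold higher in control 2 than in control 1, the median ratio was 1.31, and genes such as Nr2f2 (4767, 5066, 5300 and 5046 normalized counts) and Tbx5 (3870, 4044, 4469 and 4151) were nearly level. Bmp10, a growth factor of embryonic trabeculae and atria, was at 0.969, 950, 51.9 and 0.932, and the channel gene Kcnj3 at 1.94, 225, 54.8 and 14.0. Of the 10 pacemaker genes, all measured, only Id2, a factor of wide use, rose (limma). Shox2, a factor of the sinus node and pulmonary vein myocardium, was at 0.969, 308, 127 and 20.5 and Hcn4, the pacemaker channel, at 163, 884, 411 and 126. Isl1 was highest in Yap CKO 1, at 44.6, 125, 485 and 306. Of 18 further cardiac transcription factors 17 were measured, and Nkx2-6 rose and Myocd fell (limma).

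Control 2 and Yap CKO 1, the 2 libraries with the highest sums, were compared gene by gene, because they show whether the genes kept the same proportions. The median ratio of control 2 to Yap CKO 1 was 4.56 over the 40 genes, and 25 ratios lay between 3 and 6, close to the 4.20 of the sums. The lower and upper quartiles of the ratios were 3.55 and 5.82. Among sarcomere genes Myh6 was at 3.44 (95% counting interval 3.31 to 3.57), Myl7 at 3.54 (3.29 to 3.80), Ttn at 4.39 (4.11 to 4.70) and Actc1 at 6.29 (6.04 to 6.56). 3 genes were above 10, namely Nppb at 42.8 (18.0 to 133), Nppa at 41.2 (32.3 to 53.3) and Ckmt2 at 10.9 on 9 and 1 reads. Cox6a2 followed at 8.66 (6.71 to 11.3). The intervals of both natriuretic hormones lay wholly above the ratio of every thick filament, thin filament and Z-disc gene, and outside the 40 genes Bmp10 had a ratio of 18.3 (13.9 to 24.6). At the low end were Corin at 1.20 (1.05 to 1.36), Gja5 at 1.74 (1.58 to 1.91) and Hand2 at 1.98 (1.38 to 2.86). With 1 library on each side these ratios compare libraries, not genotypes.

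**Figure D3:**
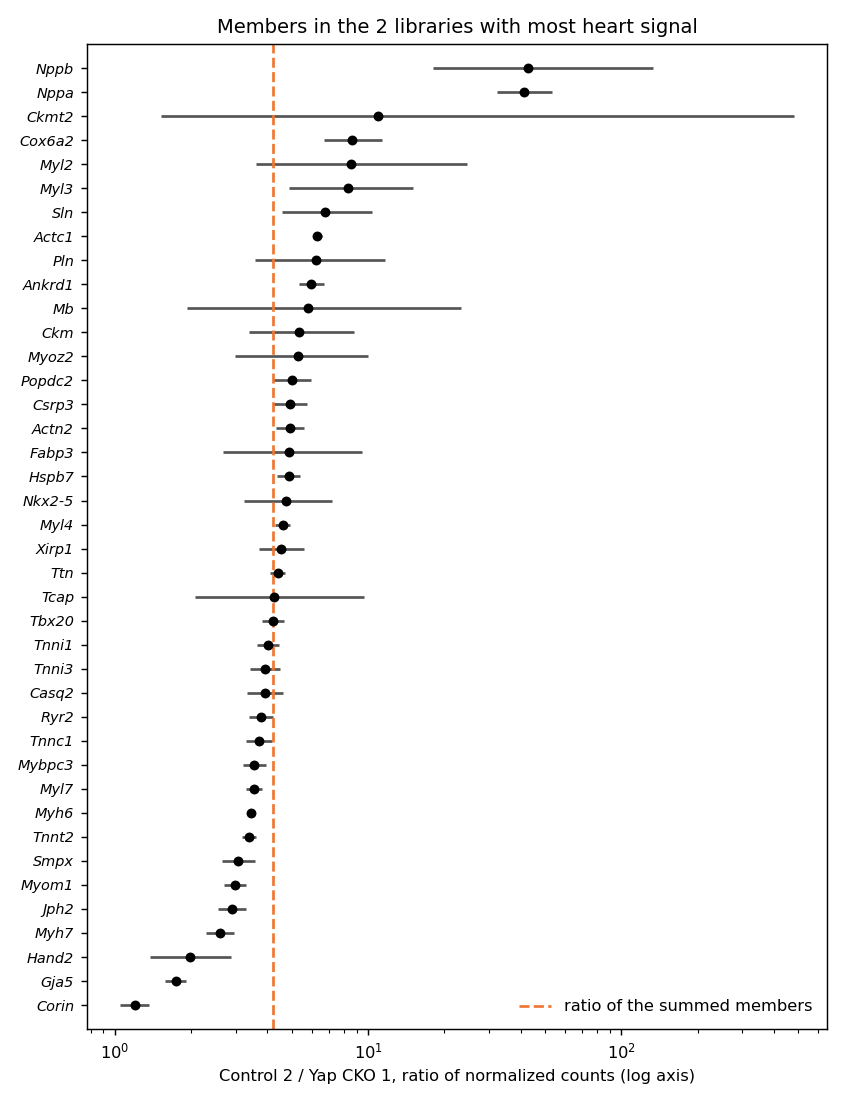
Ratio of the normalized count in control 2 to that in Yap CKO 1 (log axis) for each of the 40 genes, with exact 95% counting intervals as horizontal lines; the dashed line is the ratio of the sums, 4.20. Nppa and Nppb stand at 41.2 and 42.8 while 25 genes lie between 3 and 6.

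Within a genotype the ratios were wider between the controls than between the Yap CKO libraries. The median ratio of control 2 to control 1 was 58.5 over the 38 genes with reads in both and was also 58.5 with Nkx2-5 and Xirp1 at their bounds of at least 51.9 and at least 184. It ran from 1.63 for Jph2 to 2738 for Nppa (counting interval 491 to 108196, on 1 read in control 1). Myh6 was at 1319 (717 to 2751) and Ankrd1 at 1040 (287 to 8591). The median ratio of Yap CKO 1 to Yap CKO 2 was 5.26 over 38 genes, and 5.18 with Nppb at its bound, from 1.00 for Jph2 (0.86 to 1.2) to 35.1 for Cox6a2 (9.34 to 295). Myh6, at 10.3, again exceeded the median.

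None of the 38 tested genes passed an adjusted p of 0.05 for Yap CKO against control (limma on log2 of the normalized count plus 1), where 2.33% of all genes did, 1.19% higher and 1.15% lower. 3 of the 38 had an unadjusted p under 0.05, against 18.9% of all genes. edgeR called 0 of them, against 2.07% of all genes, and DESeq2 called 1 (Jph2), against 5.33%. The median log2 difference of the 38 was -0.46, with 15 above 0 and 23 below, beside a median of -0.01 over all genes. It ranged from -3.35 for Nppb (SE 1.90, adjusted p 0.404, limma) to 1.65 for Myh6 (SE 2.98, adjusted p 0.808, limma). The values were -2.40 for Nppa (SE 3.15), -1.71 for Actc1 (SE 1.21), 0.12 for Myl7 (SE 1.85) and 1.27 for Corin (SE 1.13). edgeR and DESeq2, which fit mean counts rather than mean logs, put 37 of the 38 below 0, with medians of -1.95 and -1.98.

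The direction of most genes depended on which control was kept, and 33 of the 38 turned from below 0 to above 0 between the fits without control 1 and without control 2. Jph2, Ryr2, Gja5, Nppb and Myl2 stayed below 0 in both. Without control 1, limma called 37 of the 38 lower in Yap CKO and 0 higher, against 6.17% lower and 6.46% higher of all genes, and the median log2 difference was -3.44. The gene not called was Corin (-0.71, adjusted p 0.106, limma). Without control 2, limma called 22 of the 38 higher and 1, Jph2, lower, against 6.14% and 6.48% of all genes, and the median was 2.31. Myh6 moved from -3.46 (adjusted p 0.0185) to 6.77 (adjusted p 1.96e-06, limma) between these fits, and Tbx20 from -2.71 (adjusted p 4.71e-04) to 3.75 (adjusted p 2.61e-07, limma). In both fits the lone control is assumed to vary like the Yap CKO libraries. Leaving out Yap CKO 1 or Yap CKO 2 called 0 of the 38, in fits that called 0.0103% and 0.0359% of all genes, and the members' medians were -1.38 and 0.64, so that the sign of the median also depended on the Yap CKO library kept.

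**Figure D4:**
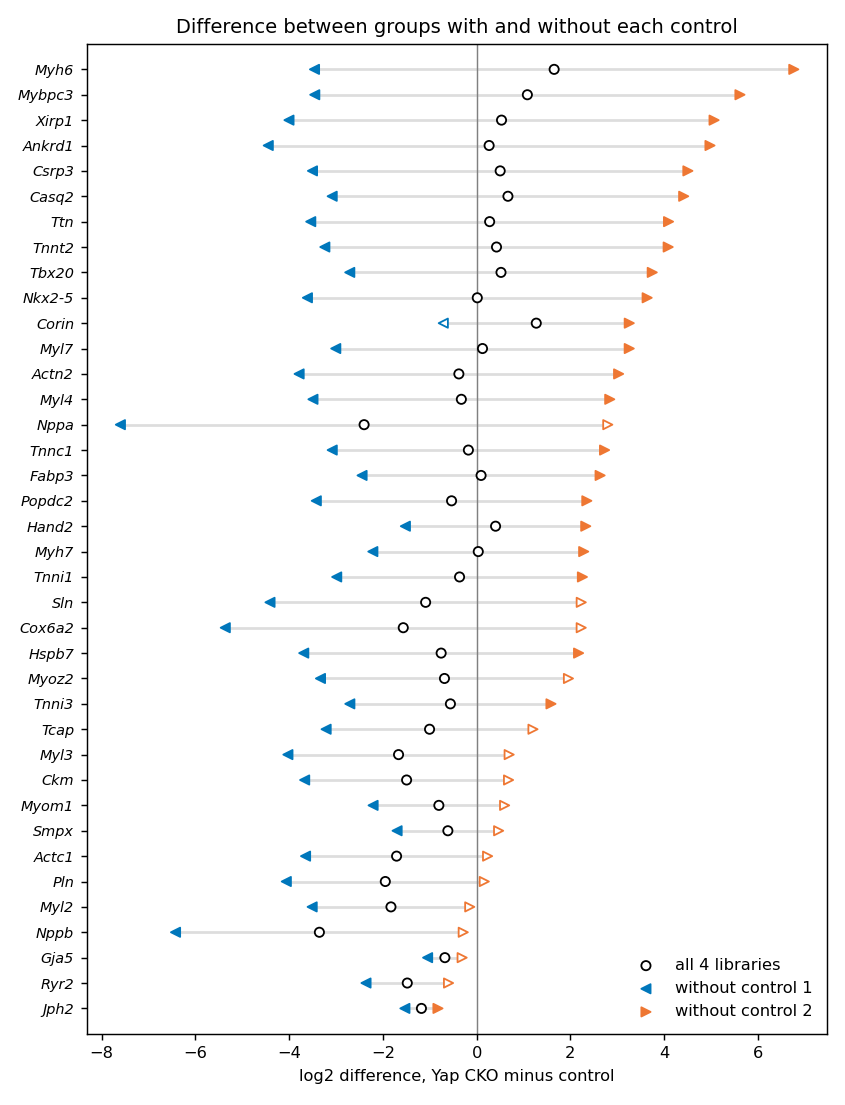
Log2 difference, Yap CKO minus control, of the 38 tested genes with all 4 libraries (black circles), without control 1 (left-pointing triangles) and without control 2 (right-pointing triangles); filled symbols have an adjusted p under 0.05 (limma). Without control 1 all 38 lie below 0, and without control 2 33 lie above.

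Jph2, Ryr2 and Gja5 were the only 3 of the 38 for which both controls lay above both Yap CKO libraries, an order found in 25.6% of all genes, and they were also the 3 with an unadjusted p under 0.05. Jph2 (chr2:163336242-163397993, minus strand), which holds the sarcoplasmic reticulum against the surface membrane, had a mean of 787 ± 267 normalized counts in the controls and 337 ± 0.681 in the Yap CKO libraries (SD, n = 2 each). Its log2 difference was -1.18 (SE 0.22), its adjusted p was 0.0550 in limma and 8.91e-05 in DESeq2, and it was -1.53 without control 1 and -0.83 without control 2 (adjusted p 3.32e-05 and 7.04e-04, limma). Both of those fits rest on the small spread between the Yap CKO libraries. Without Yap CKO 1 or Yap CKO 2 its adjusted p was 0.419 and 0.374 (limma), without a filter 0.150, without the intensity trend 0.177 and in edgeR 0.0663. Ryr2 had a log2 difference of -1.48 (SE 0.56, adjusted p 0.226, limma) and Gja5 one of -0.68 (SE 0.26, adjusted p 0.239, limma). Both kept the sign without either control, with Ryr2 at -2.36 and -0.60 and Gja5 at -1.05 and -0.31.

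These 3 genes also had the smallest ratios between the controls of the 38. The sum of the smooth muscle list was lower in both Yap CKO libraries than in both controls as well. It was level between the controls and higher in Yap CKO 2 than in Yap CKO 1, unlike Ryr2 and Gja5. Its genes differed in this. From control 1 to control 2, Myl9 (2496, 4592, 1284 and 1301) and Cnn1 (612, 889, 277 and 291) rose, and Myh11 (5781, 3910, 1342 and 2716) fell. The list's median ratio of control 2 to control 1 was 1.07. Of its 12 genes, all measured, 5 fell in Yap CKO (limma), among them Actg2 (1708, 1775, 431 and 773 normalized counts, adjusted p 0.0347, limma) and Myocd (1247, 1373, 380 and 594, adjusted p 0.0251, limma). The list summed to 46849 to 47154 in the controls and 26753 to 33217 in the Yap CKO libraries, and none of its genes was at 0. Jph2 and Ryr2 are also used by smooth muscle, and the part of smooth muscle in their values was not tested.

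Other heart muscle genes outside the 40 varied with the same libraries. Of 39 listed, 38 were measured, and 19 of these were at least 4-fold higher in control 2 than in control 1 and 10 at least 4-fold higher in Yap CKO 1 than in Yap CKO 2. Myom2, an M-band protein, was at 0, 138, 27.9 and 2.80 normalized counts, Trdn, which ties Ryr2 to Casq2, at 2.91, 396, 59.6 and 11.2, and Trim55 at 4.85, 516, 128 and 17.7. As for the 40 genes, limma called none with both controls, 32 lower without control 1 and 10 higher without control 2. Not all genes of the list followed this pattern. The L-type calcium channel gene Cacna1c, at 2284, 2198, 2046 and 2351, was nearly level. The potassium channel subunit gene Kcnip2, at 83.3, 57.3, 64.4 and 88.6, was lowest in control 2.

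The skeletal muscle list varied less in most of its genes. 14 of its 29 genes were measured, none was called, 5 were at least 4-fold higher in control 2 than in control 1 and 4 in Yap CKO 1 than in Yap CKO 2, and the median ratios were 2.00 and 2.01. The list's sum was 1616, 3201, 1646 and 1096 normalized counts, the largest share of it from Acta1, skeletal α-actin, at 1117, 2010, 639 and 585. The muscle-determining factors Myod1 (0, 4.68, 6.73 and 1.86) and Myog (2.91, 18.7, 14.4 and 0.932) were at 18.7 normalized counts or fewer, and the fast troponin gene Tnnc2 was at 0 or 1 read in every library. Myl1 (1.94, 344, 76.9 and 14.0), which embryonic heart also makes, varied like the heart genes. The skeletal myosin genes Myh2 (0, 53.8, 21.2 and 0.932) and Myh1 (0, 46.8, 16.3 and 0.932) had the same library order. Myh3, the embryonic skeletal myosin, did not keep this order, at 3.88, 92.4, 139 and 10.3. Yap CKO 1 was its highest library, as it was for Myh8 (0.969, 22.2, 29.8 and 10.3).

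Epicardium and mesothelium genes, of which all 9 were measured, had a median ratio of 1.32 between the controls, and endocardium genes, all 6 measured, one of 1.72, and limma called none of either list. 2 of the 9 were at least 4-fold higher in control 2 than in control 1. They were Tbx18, which pacemaker tissue also expresses, at 64.9, 648, 324 and 132 normalized counts, and Msln, at 17.4, 140, 60.6 and 27.0. Of the 6 endocardium genes 1 was, namely Gata4, which heart muscle and liver also express, at 200, 958, 478 and 218. The lung list, all 8 measured, had a median ratio of 0.950 between the controls and 0.939 between the Yap CKO libraries, and Sftpc rose and Etv5 fell in Yap CKO (limma). Of the liver list's 5 measured genes 4 rose in Yap CKO (limma), and its sums were 57.2, 139, 1704 and 950. Within each genotype it was higher in the library with the higher sum of heart muscle genes. The liver list's median ratios were 1.80 between the controls and 1.81 between the Yap CKO libraries. The highest library was thus Yap CKO 1 for the liver list and control 2 for the heart muscle genes.

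**Figure D5:**
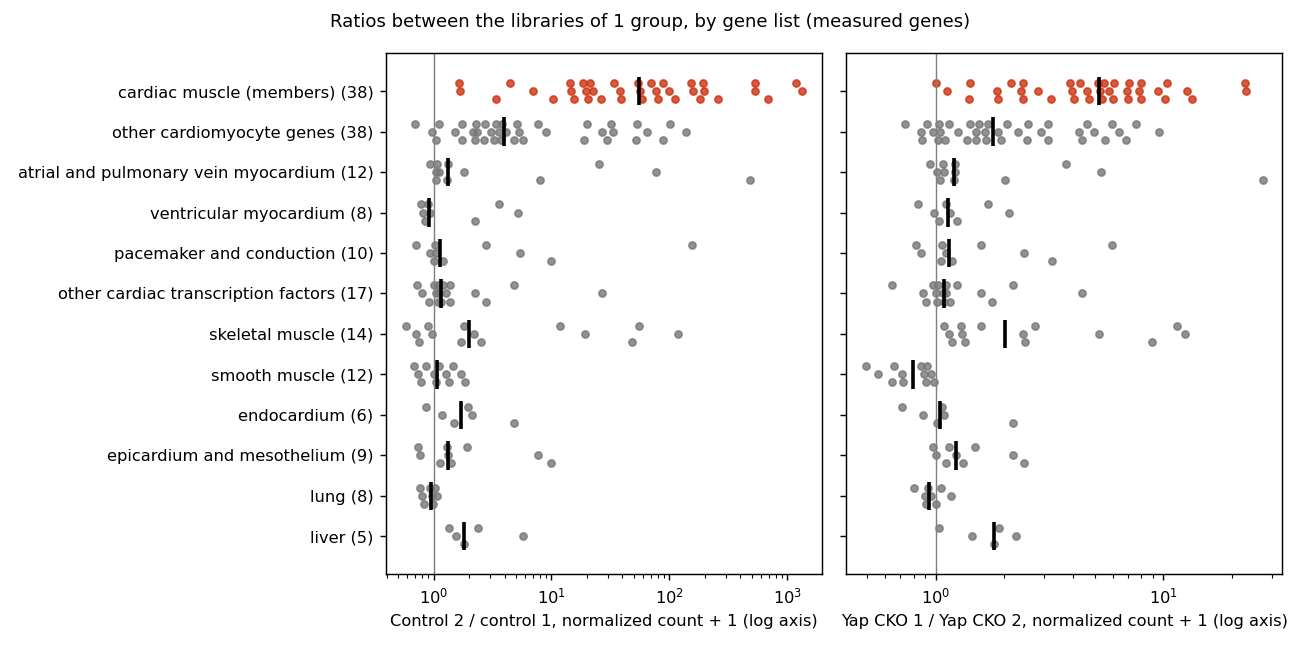
Ratio of normalized counts plus 1 (log axis) between control 2 and control 1 (left) and between Yap CKO 1 and Yap CKO 2 (right) for each measured gene of the 40 heart muscle genes (red) and of 11 other lists (grey), black bars marking the medians. The heart muscle genes have medians far above 1 in both panels, while the lung genes have medians of 0.950 and 0.939.

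The genes outside the 40 whose library pattern came nearest to that of the summed 40 were ranked by the root mean square difference of centred log2 values over the 4 libraries. Among 248 protein-coding autosomal candidates with a log2 range of at least 3, the first 15 were Cav3 (0.05), Sgca (0.13), Klhl30 (0.13), Smyd1 (0.17), Lsmem1 (0.18), Pgam2 (0.21), Myo18b, Mypn, Fitm1, Mlip, Grip2, Tmod1, Apobec2, Kcnj5 and Sh3bgr (0.36). Cav3, the caveolin of muscle, was at 2.91, 77.2, 19.2 and 3.73 normalized counts, and Smyd1, a muscle methyltransferase, at 41.7, 1140, 262 and 58.7. 4 of the 15 (Cav3, Smyd1, Pgam2 and Kcnj5) were on a list used here. Of the 38 tested heart muscle genes Tcap was nearest to the sum (0.16) and Myh6 farthest (2.50), and 3 were nearer than Sh3bgr. With 4 libraries this likeness is a description.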

How the data were processed

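RNA from whole lungs at embryonic day 14.5 was sequenced in 4 libraries, 2 Control and 2 Yap CKO, grouped by their titles. The authors deposited 1 table of normalized read counts, a signal that is never negative, for 52636 Ensembl genes. Among the tools listed in the submitters' processing notes are featureCounts 1.5.0-p1, Bowtie2 2.2.9, edgeR 3.18.1 and DESeq 1.16.0, with build mm10 and without roles, and the annotation release and strand setting are not given in the sources used here. 100% of values were whole reads divided by 1 factor per library (tolerance 0.001 reads), from 0.855 to 1.07, which gave the reads for intervals and count tests. Symbols, positions and exon lengths came from GENCODE M21, which matched 52489 identifiers, and no column was without a sample.

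Genes with a mean of at least 10 were tested on log2(normalized count + 1) with limma 3.58.1 in R 4.3.3 (2 residual degrees of freedom, 4.54 added by moderation with an intensity trend, two-sided, Benjamini-Hochberg adjustment over 19472 genes, called under 0.05). This log2 scale understates the change of genes near 0. Alternatives were edgeR 4.0.16 and DESeq2 1.42.0 on the recovered reads, other pseudocounts, filters and scalings, a replicate block and leaving out each library. The fits were tested on simulated counts with the same dispersion for every gene. That simulation did not include differences within a group as wide as those of the heart muscle genes. Ratios between libraries carry exact 95% intervals of the reads.

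Values in every library are given for the gene with the highest level per length in each role, for those departing most from the summed genes and for the 3 with the smallest p. Of each list up to 4 genes of the widest range could be named, and of the 15 nearest genes outside the 40, all named, 2 are given with values. Other genes were named after their values were seen, among them Myh6, Mybpc3, Ttn, Myom1, Ankrd1, Xirp1, Smpx, Casq2, Popdc2, Irx4, Hand1, Cacna1c, Kcnip2, Nr2f2, Tbx5, Acta1, Myod1, Myog, Tnnc2 and Myocd. The 40 genes and all lists were chosen with earlier results of these data known. 19 of the 40 overlap exons of another annotated gene, 17 of them on the opposite strand, and in 3 (Nppa, Pln and Mb) the overlap reaches 20% of the exon length, so their counts are uncertain.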

Additional observations from a re-analysis of the deposited data

How the results depend on the processing

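limma called 0 members with other pseudocounts, filters or scalings or without the intensity trend, and every named difference kept its direction there. All genes' calls, 454 as reported, came to 56 without a filter, 6 without the trend and 1037 with DESeq2. Among the named differences, DESeq2 and edgeR turned the sign of Myl7 (-1.60 and -1.59), Tbx20 (-1.60 and -1.59), Hand2 (-0.53 and -0.51) and Myh6 (-1.66 and -1.66). Over all 38 tested members, 15 were above 0 in limma and 1 in each of these tools, which fit mean counts rather than mean logs. The mean counts of these 4 genes were lower in Yap CKO, for Myl7 1730 in the controls and 576 in Yap CKO. DESeq2 called 1 member lower (Jph2).

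Leaving out each library in turn gave 0 to 22 members higher and 0 to 37 lower, 2 to 2459 genes called and members' medians from -3.44 to 2.31. The direction turned in these fits for Myl7 (-3.01 to 3.25), Nppa (-7.60 to 2.80), Actc1 (-3.65 to 0.23), Hspb7 (-3.69 to 2.17), Tbx20 (-2.71 to 3.75), Cox6a2 (-5.36 to 2.23), Corin (-0.71 to 3.26), Hand2 (-1.52 to 2.33) and Myh6 (-3.46 to 6.77).

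Same-numbered libraries did not deviate together (correlation across genes -0.36). With 2 libraries per group this compares only the difference within one group with that within the other. It cannot exclude that libraries of the same number shared a litter or preparation. A replicate block called 1 member lower (Jph2, adjusted p 0.0452, limma) and 342 genes. A block with crossed numbers, chosen after seeing the data, called 5 members lower and 972 genes.

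Paralog shares moved with the length used. Without length scaling Myl7 was at 91.84%, 98.58% and 99.41% in control 1, control 2 and Yap CKO 1, Myl4 at 97.51% and 98.61% in control 2 and Yap CKO 1, Myh6 at 93.44%, 91.5% and 77.18% in control 2, Yap CKO 1 and Yap CKO 2, and Tnni3 at 51.35%, 35.3%, 35.91% and 43.85% in the 4 libraries. With the longest transcript, control 2 gave 99.06% for Myl7, 93.09% for Myl4, 93.56% for Myh6 and 56.29% for Tnni3. Yap CKO 1 then gave 99.61% for Myl7, 91.65% for Myh6 and 56.94% for Tnni3, and Yap CKO 2 gave 77.51% for Myh6 and 64.84% for Tnni3. Ratios to genes with 3 reads or fewer, found mostly in control 1 and Yap CKO 2, the deepest libraries, have wide counting intervals.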
